A study of Mus musculus with 119 samples.

Results

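Lad1, Flrt3, and Pdpn are 3 of the 18098 genes measured by RNA-seq in libraries of mouse bone marrow–derived macrophages (BMDMs). They were chosen by their values in these same libraries, as genes that LPS induces and whose dependence on RSK and on ternary complex factors (TCFs) differs. The comparisons that this choice used, which are the LPS responses and their differences between genotypes, the effects of RSKi47 and of ELK1/ELK4 loss, and the effects of blocking TPL-2 or MKK1/2, are therefore given as a description with no test. The effect of PD0325901 without LPS was not named by this choice and was tested. The levels in Nfkb1[SS/AA] against WT cells are a description at each time too, because the WT libraries they are set against entered the choice.

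LPS is sensed by TLR4 on macrophages. Downstream, the kinase IKK phosphorylates p105, the product of Nfkb1, which releases the kinase TPL-2 (encoded by Map3k8) to activate MKK1/2 and through them ERK1/2. Active ERK1/2 acts on gene expression through the TCFs, such as ELK1 and ELK4, which bind DNA together with SRF, and through kinases of the RSK family. The products of the 3 genes work at the cell surface or at cell contacts and are better known from other tissues than from macrophages. Ladinin, the product of Lad1, was described as an anchoring protein of the basement membrane of skin. FLRT3 is a transmembrane protein with leucine-rich repeats that binds latrophilins and UNC5 receptors and takes part in cell adhesion and guidance. Podoplanin, encoded by Pdpn, is a mucin-type membrane glycoprotein that binds the platelet receptor CLEC-2 and, through its short cytoplasmic tail, proteins that link the membrane to actin.

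All cells were BMDMs of strain C57BL/6(NIMR), given 100 ng/ml LPS where stimulated. WT cells were sequenced in 6 libraries each before LPS and after 0.5 h and 1 h, and in 4 libraries after 2 h. Map3k8[D270A] cells, whose TPL-2 has no kinase activity, gave 6 libraries at each of the 4 times, and Elk1-/-Elk4-/- cells gave 4 at each. Nfkb1[SS/AA] cells, in which p105 cannot be phosphorylated by IKK, gave 6 libraries at each of 3 times with none at 2 h. WT cells that received the MKK1/2 inhibitor PD0325901 (0.1 µM) gave 3 libraries each at 10, 40, and 70 min without LPS, and 6 each after a further 0.5 or 1 h with LPS, added 10 min after the inhibitor. DMSO, its solvent, was given for 10 min in 3 libraries. WT cells with the RSK inhibitor RSKi47 (2 µM) gave 4, 3, 4, and 4 libraries without LPS and at 0.5, 1, and 2 h. Those without LPS had the inhibitor for 10 min, and in the others LPS was added 10 min after it. The methods call the libraries biological replicates, but do not say whether each came from its own mouse or from a pool. The study describes WT and Map3k8[D270A] cells as a single time course, but the labels tie the WT libraries to no experiment. All comparisons with WT share these libraries, so the condition and the experiment cannot be told apart, and no library holds DMSO with LPS.

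Values are on a log2 scale and were normalized across libraries by the authors. They are not read counts, so the depth of a given library cannot be read from them (the methods state a typical yield only), and how far replicates scatter limits the precision. Each gene had its own lowest value, 2.33 for Lad1, 4.28 for Flrt3, and 8.24 for Pdpn, and of all libraries 73, 20, and 42, respectively, lay within 0.5 of it. Lad1 without LPS lay below the linear value of 10 used as a filter, and a difference that starts from so low a level may understate the change. Levels were not compared between genes because the values are not per gene length. A difference is the difference of 2 group means on this scale, with the standard error (SE) of a limma fit over all genes. A gene was called higher or lower at an adjusted p below 0.05 (limma, Benjamini-Hochberg adjustment over all genes tested). All 3 genes passed the filter on low values in both fits, one over WT, Map3k8[D270A], and Elk1-/-Elk4-/- libraries (11884 genes tested) and one over all libraries (11971 genes tested).

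The targeted genes and cell markers were checked first. In Elk1-/-Elk4-/- cells, the difference from WT at 2 h was -2.76 for Elk1 and -2.47 for Elk4, whereas Map3k8 and Nfkb1 carry point mutations and their mRNA does not check the genotype. All 7 macrophage markers were expressed in every group, with Csf1r at 14.97 in unstimulated WT cells. None of the 4 epithelial and 5 endothelial markers found among the genes measured passed the filter. RSKi47 replicate 4 stood apart from the other RSKi47 libraries, with no library of that number at 0.5 h, so the differences from WT with RSKi47 are given with and without it. In a bulk library, fewer cells of a type and less RNA per cell cannot be told apart.

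The genes had been put forward as late genes linked to ERK. In WT cells Lad1 and Pdpn were highest at 2 h, but Flrt3 was highest at 1 h. At 1 h of LPS Flrt3 and Pdpn differed from all WT libraries by -0.07 to 0.20 with PD0325901 or in Nfkb1[SS/AA] cells, with a sign that turned with the WT libraries used, and neither condition was measured at 2 h, when Lad1 and Pdpn were highest. The 3 genes are therefore referred to by name.

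The bases just upstream of each transcription start are shown because the genes respond to LPS with different time courses. They were searched for sites of NF-κB and of transcription factors linked to ERK1/2. The sequences are the 250 bases before the RefSeq start, 5′ to 3′ on the gene's strand, from the table of build GRCm38.p6, which is the mm10 assembly that the authors aligned to. Lad1 is on the forward strand of chromosome 1 (135818598 to 135833341), Flrt3 on the reverse strand of chromosome 2 (140658198 to 140671476), and Pdpn on the reverse strand of chromosome 4 (143267409 to 143299564). The windows are chr1:135818348-135818597 for Lad1, chr2:140671477-140671726 for Flrt3, and chr4:143299565-143299814 for Pdpn.
Lad1: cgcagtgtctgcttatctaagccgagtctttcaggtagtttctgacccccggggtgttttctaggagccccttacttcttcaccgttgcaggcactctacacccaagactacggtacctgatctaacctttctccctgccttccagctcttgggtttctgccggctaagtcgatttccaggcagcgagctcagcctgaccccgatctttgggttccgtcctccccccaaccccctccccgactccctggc
Flrt3: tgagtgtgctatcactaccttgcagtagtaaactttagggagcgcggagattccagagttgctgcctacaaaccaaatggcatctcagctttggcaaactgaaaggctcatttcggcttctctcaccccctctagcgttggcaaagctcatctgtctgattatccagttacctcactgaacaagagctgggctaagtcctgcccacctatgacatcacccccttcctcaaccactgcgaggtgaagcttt
Pdpn: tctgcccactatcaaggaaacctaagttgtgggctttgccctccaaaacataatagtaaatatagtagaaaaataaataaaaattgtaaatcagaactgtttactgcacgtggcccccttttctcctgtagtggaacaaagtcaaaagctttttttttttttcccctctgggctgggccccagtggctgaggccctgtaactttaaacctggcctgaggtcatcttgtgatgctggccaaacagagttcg
None of these windows held the AP-1 motif TGANTCA, the CRE motif TGACGTCA, the ETS core CCGGAA, the SP1 motif GGGCGG, a CArG box, or an NF-κB site by its consensus, on either strand, so no letters are in capitals. Of 32851 RefSeq promoters of the same length, 6.75% held the AP-1 motif, 1.55% CRE, 12% the ETS core, 32.7% the SP1 motif, 1.47% a CArG box, and 7.25% an NF-κB site. In a wider window that also takes the first 50 bases of the transcript, Pdpn held 2 SP1 matches, as 35.7% of promoters held at least 1, and the other windows and motifs gave no match. The absence of a match says only that these letters are not in these windows. The share of G and C was 57.6% for Lad1, 50.0% for Flrt3, and 43.2% for Pdpn. Flrt3 lies inside Macrod2, which is on the other strand (chromosome 2, 140395303 to 142392966). The reads were strand-specific, and Macrod2 was not called in the LPS response of WT cells at 1 h (-0.14) or 2 h (-0.17). It was called lower than in WT cells in Nfkb1[SS/AA] (-0.42) and PD0325901-treated cells (-0.33) at 1 h, and with RSKi47 (-0.21) or DMSO (-0.36) without LPS, and its part in the values of Flrt3 there was not tested.

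The first question was how each gene behaved in WT cells over 2 h of LPS. Lad1 was near its lowest level without LPS, where the lowest, median, and highest of 6 libraries were 2.34, 2.48, and 2.60. At 0.5 h it was still there, at 2.35, 2.46, and 2.53. At 1 h it was 3.11, 3.74, and 4.25, above every unstimulated library. At 2 h the 4 libraries gave 7.97, 5.70, 7.84, and 6.07, so replicates 4 and 6 were high and replicates 5 and 7 were lower, and this was the widest spread of the gene in any group (SD 1.18). Lad1 was thus higher than in unstimulated cells by 1.22 (SE 0.23) at 1 h and by 4.42 (SE 0.26) at 2 h, and higher by 3.20 (SE 0.26) at 2 h than at 1 h.

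Flrt3 had an earlier course. Its lowest, median, and highest values were 4.38, 4.59, and 4.85 without LPS and 4.79, 5.25, and 5.49 at 0.5 h, which overlap by a little. Each library was higher at 0.5 h than the library of the same number without LPS. At 1 h they were 7.03, 7.86, and 8.31, well above both earlier times. At 2 h the 4 libraries gave 6.96, 7.04, 7.01, and 6.49. Flrt3 was higher than in unstimulated cells by 0.59 (SE 0.18) at 0.5 h, 3.17 (SE 0.18) at 1 h, and 2.27 (SE 0.20) at 2 h. The difference between 2 h and 1 h was -0.90 (SE 0.20), over groups that hold unlike shares of the library numbers. Libraries 4 to 6 averaged 8.28 at 1 h and 7.01 at 2 h, and library 7 gave 7.03 and 6.49.

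Pdpn started later than Flrt3. Without LPS its lowest, median, and highest values were 8.30, 8.67, and 9.01, and at 0.5 h they were 8.24, 8.56, and 8.91, so these groups overlapped almost fully. At 1 h they were 9.26, 9.65, and 10.23. At 2 h the 4 libraries gave 10.98, 11.05, 11.05, and 10.54, above every library at 1 h. Pdpn was higher than without LPS by 1.09 (SE 0.14) at 1 h and 2.27 (SE 0.16) at 2 h. All 3 genes had no overlap with unstimulated cells at 1 and 2 h. Over all genes tested, 15.4% had such a higher group at 1 h and 29.2% at 2 h, and since the genes were chosen as induced, nothing is read from this count.

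**Figure D1:**
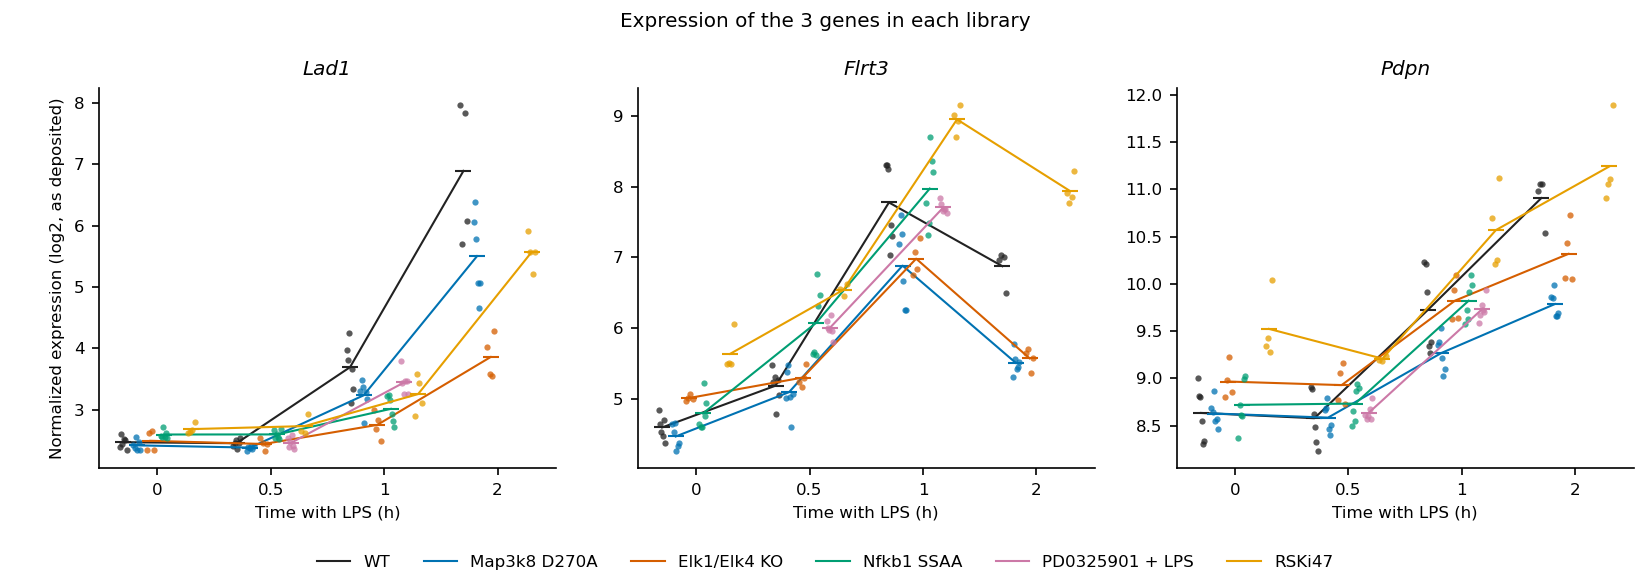
Value of Lad1, Flrt3, and Pdpn (log2, y axis) in each library against the time of LPS (x axis, h), with points coloured by genotype or inhibitor and bars at the group means. In WT cells Lad1 and Pdpn are highest at 2 h, with means of 6.89 and 10.91, and Flrt3 is highest at 1 h, with a mean of 7.78.

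The second question was what the loss of TPL-2 kinase activity did. In Map3k8[D270A] cells at 2 h, the lowest, median, and highest values of 6 libraries were 4.66, 5.42, and 6.39 for Lad1. These overlap with the 4 WT libraries (5.70 to 7.97), and the difference was -1.39 (SE 0.26). For Flrt3 they were 5.31, 5.49, and 5.78, below every WT library (6.49 to 7.04), with a difference of -1.37 (SE 0.20). For Pdpn they were 9.66, 9.78, and 9.99, again below every WT library (10.54 to 11.05), with a difference of -1.12 (SE 0.16). Over all genes tested, 7.67% had a Map3k8[D270A] group wholly below WT at 2 h.

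Over all libraries the effect was smaller at 1 h and near 0 before that. At 1 h the differences were -0.46 (SE 0.23) for Lad1, -0.89 (SE 0.18) for Flrt3, and -0.46 (SE 0.14) for Pdpn, and each Map3k8[D270A] group overlapped with WT. Without LPS and at 0.5 h they lay between -0.13 and 0.01 for the 3 genes. The WT libraries carry the numbers 4 to 9 and the Map3k8[D270A] libraries 1 to 6, so the lower numbers of one were also set against the lower numbers of the other. At 2 h the difference in the lower numbers was -1.09 for Lad1, -1.45 for Flrt3, and -1.13 for Pdpn. In the higher numbers, with 1 WT library, it was -1.14, -1.02, and -0.87, so all 3 genes were lower in both sets. With the libraries numbered 4 to 6 of both genotypes it was -2.24, -1.53, and -1.36, so the size for Lad1 depended on which libraries were set against each other. At 1 h those libraries averaged 6.40 for Flrt3 in Map3k8[D270A] and 8.28 in WT cells, a gap that was not smaller than at 2 h. For Pdpn at 1 h they averaged 9.11 and 10.12, whereas the WT libraries numbered 7 to 9 averaged 9.33.

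The third question was what the loss of ELK1 and ELK4 did. In Elk1-/-Elk4-/- cells at 2 h the 4 libraries gave 4.03, 3.57, 3.55, and 4.29 for Lad1. Every one of them was below every WT library, and the difference was -3.04 (SE 0.28). The same 4 libraries gave 5.65, 5.71, 5.38, and 5.58 for Flrt3, also wholly below WT, with a difference of -1.30 (SE 0.22). For Pdpn they gave 10.06, 10.43, 10.73, and 10.05, of which the highest lay above the lowest WT library, with a difference of -0.59 (SE 0.17). Of all genes tested, 19.0% had an Elk1-/-Elk4-/- group wholly below WT at 2 h.

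At 1 h, Lad1 in Elk1-/-Elk4-/- cells was 2.99, 2.69, 2.84, and 2.49, below every WT library, with a difference of -0.94 (SE 0.26), and 18.2% of all genes had such a lower group. Flrt3 was 6.75, 7.08, 6.83, and 7.27, which overlapped with WT, with a difference of -0.79 (SE 0.20). Its mean of 6.98 stood against 8.28 in the WT libraries numbered 4 to 6 and 7.27 in those numbered 7 to 9, so the size depended on the WT set. Pdpn was 9.63, 9.93, 10.09, and 9.64, with a difference of 0.10 that was smaller than its SE (0.16). Its mean of 9.82 lay between those of the WT libraries numbered 4 to 6 (10.12) and 7 to 9 (9.33), so the sign turned with the WT set. Inside these cells the LPS response at 2 h was 1.37 for Lad1, 0.56 for Flrt3, and 1.35 for Pdpn, against 4.42, 2.27, and 2.27 in WT cells.

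Before LPS, Flrt3 was already higher in Elk1-/-Elk4-/- cells, with a lowest value of 4.97 and a highest of 5.08 in 4 libraries, than in every WT library. The difference was 0.42 (SE 0.20), and 20.7% of all genes had such a higher group. Lad1 differed by 0.02 and Pdpn by 0.33 (SE 0.16). These libraries also held more RNA of neutrophil markers than WT. All 5 of the 8 markers that were tested were higher at 2 h, by a median of 4.38, and the sum of the 8 linear values ranged from 1689 to 2108 against 85.4 to 211.8 in WT, with Elane near its lowest value. Their part in the differences of Lad1, Flrt3, and Pdpn was not tested. With only the WT libraries numbered 4 to 6 as controls, the differences at 2 h were -3.31 for Lad1, -1.43 for Flrt3, and -0.71 for Pdpn. With the WT library numbered 7 they were -2.21, -0.92, and -0.23, so the sign was the same and the size depended on the WT set.

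The fourth question was what blocking MKK1/2 did. With PD0325901 and 1 h of LPS, the lowest, median, and highest values were 3.26, 3.45, and 3.80 for Lad1, inside the WT range, and the difference was -0.25 (95% confidence interval -0.60 to 0.11). Flrt3 was 7.62, 7.68, and 7.84, in the middle of the WT range, with a difference of -0.07 (-0.41 to 0.27). Pdpn was 9.59, 9.72, and 9.94, with a difference of 0.01 (-0.26 to 0.28). Each group thus overlapped with WT at 1 h, and changes inside these intervals would not have been seen.

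These values at 1 h depended on which WT libraries stood as control. Against the WT libraries numbered 4 to 6 the differences were -0.56 for Lad1, -0.58 for Flrt3, and -0.38 for Pdpn. Against those numbered 7 to 9 they were 0.07, 0.44, and 0.40, so the sign turned for each gene. At 0.5 h, when Lad1 and Pdpn were at their unstimulated levels and differed by 0.01 and 0.06, Flrt3 was 5.80, 5.99, and 6.20 with PD0325901 against 4.79, 5.25, and 5.49 in WT cells. The 2 groups did not overlap, and the difference was 0.82 (SE 0.17) over all WT libraries, 0.66 over the lower numbers, and 0.97 over the higher. Of all genes tested, 8.19% had a PD0325901 group wholly above WT at 0.5 h. The PD0325901 libraries also held more RNA of neutrophil markers, with 5 of 5 tested higher at 1 h by a median of 1.61, and summed linear values of 305 to 449 against 84.3 to 213.7. Ly6g, Mpo, and Elane were near their lowest values in both groups. The same 5 markers were higher in the DMSO libraries than in WT without LPS, by a median of 1.35, and their part in the value of Flrt3 was not tested. In the DMSO libraries Lad1, Flrt3, and Pdpn differed from unstimulated WT by -0.02, 0.14, and -0.04.

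The fifth question was what RSKi47 did, and the 3 genes went in different directions. Flrt3 was higher than in WT at every time. Without LPS the 4 libraries gave 5.50, 5.51, 5.50, and 6.06, and at 0.5 h the 3 libraries gave 6.55, 6.46, and 6.63. At 1 h they gave 9.01, 8.70, 8.92, and 9.15, and at 2 h 7.90, 7.76, 7.85, and 8.22. Each of these groups lay wholly above WT, with differences of 1.04 (SE 0.19), 1.35 (SE 0.21), 1.17 (SE 0.19), and 1.06 (SE 0.21) in the order of the times. Over all genes tested, 19.5%, 21.2%, 16.3%, and 20.0% had an RSKi47 group wholly above WT at these times. Since Flrt3 was higher before LPS too, its LPS response inside RSKi47-treated cells, 3.30 at 1 h and 2.29 at 2 h, was close in value to the 3.17 and 2.27 of WT cells. Without replicate 4 it was 3.38 and 2.34.

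The mean of Pdpn was also above WT with RSKi47, least so at 2 h, when the groups overlapped. Without LPS the libraries gave 9.35, 9.42, 9.28, and 10.04, and at 0.5 h 9.20, 9.19, and 9.24, all above every WT library. The differences were 0.89 (SE 0.15) and 0.63 (SE 0.17). At 1 h Pdpn was 10.70, 10.21, 10.25, and 11.12, which overlapped with WT, with a difference of 0.84 (SE 0.15). At 2 h it was 10.91, 11.06, 11.11, and 11.89, with a difference of 0.33 (SE 0.17). The size depended on the WT set. At 1 h the mean of 10.57 stood against 10.12 in the WT libraries numbered 4 to 6 and 9.33 in those numbered 7 to 9. At 2 h the mean of 11.24 stood against 11.03 in those numbered 4 to 6 and 10.54 in number 7. Replicate 4 was the highest Pdpn library at each time it was measured, and without it the differences without LPS and at 1 and 2 h were 0.72, 0.66, and 0.12.

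Lad1 went the other way at the late times. With RSKi47 it was 5.91, 5.57, 5.22, and 5.57 at 2 h, of which the highest lay inside the WT range, and the difference was -1.33 (SE 0.22). At 1 h it was 2.90, 3.59, 3.43, and 3.10, with a difference of -0.44 (SE 0.20). Without LPS and at 0.5 h it was slightly higher than every WT library, by 0.21 (SE 0.20) and 0.28 (SE 0.22), which is within 1 to 2 SE of 0 and close to the lowest level of the gene. Without replicate 4 the difference was 0.17 without LPS, -0.39 at 1 h, and -1.33 again at 2 h. At 2 h it was -1.60 against the WT libraries numbered 4 to 6 and -0.50 against the WT library numbered 7.

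**Figure D2:**
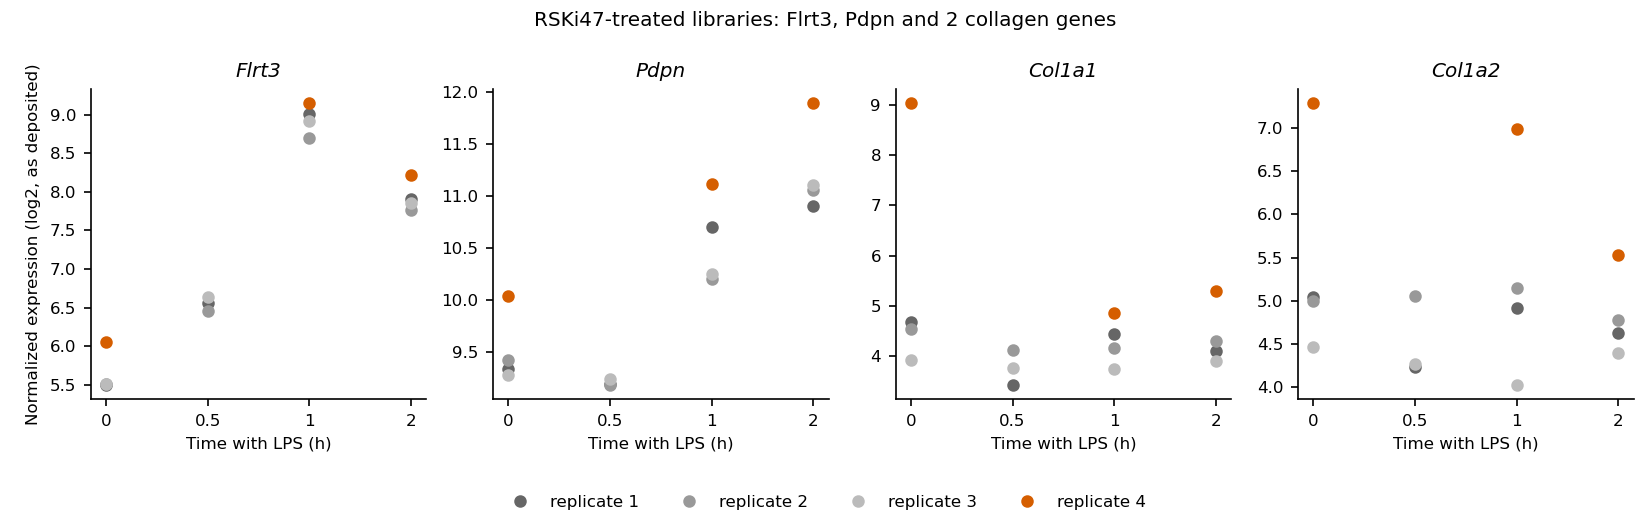
Values (log2, y axis) of Flrt3, Pdpn, and the fibroblast markers Col1a1 and Col1a2 in each RSKi47-treated library against the time of LPS (x axis, h), with replicate 4 in its own colour. Replicate 4 is the highest library for Flrt3 and Pdpn without LPS, at 6.06 and 10.04, and Col1a1 is at 9.03 in it.

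The RSKi47 libraries also held more collagen RNA. Of 8 fibroblast markers 3 were tested, and without LPS all 3 were higher than in WT, Col1a1 by 3.06, Col1a2 by 2.30, and Pdgfrb by 0.50. The summed linear values of the 8 were 58.3 to 696 with RSKi47 and 25 to 32 in WT without LPS, and 44.4 to 175 against 26.9 to 46.0 at 1 h. Pdgfra, Dcn, Lum, and Thy1 were within 0.5 of their lowest values in every RSKi47 group. Without replicate 4 the differences without LPS were 1.90 for Col1a1, 1.69 for Col1a2, and 0.52 for Pdgfrb, and those of Flrt3 were 0.90, 1.35, 1.10, and 0.96 at the 4 times. Neutrophil markers moved too, with 4 of 5 tested higher without LPS (median 0.90) and 5 of 5 at 1 h (median 0.92), or 3 and 5 without replicate 4. Their summed linear values at 1 h were 205 to 344 against 84.3 to 213.7 in WT, with Ly6g, Mpo, and Elane near their lowest values. Fibroblasts are known to express Pdpn, and the part of such cells or of neutrophils in the values of Lad1, Flrt3, and Pdpn was not tested. Against the WT libraries numbered 4 to 6, Flrt3 differed by 0.96, 1.2, 0.66, and 0.93, and against those numbered 7 to 9 by 1.11, 1.51, 1.68, and 1.44.

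**Figure D3:**
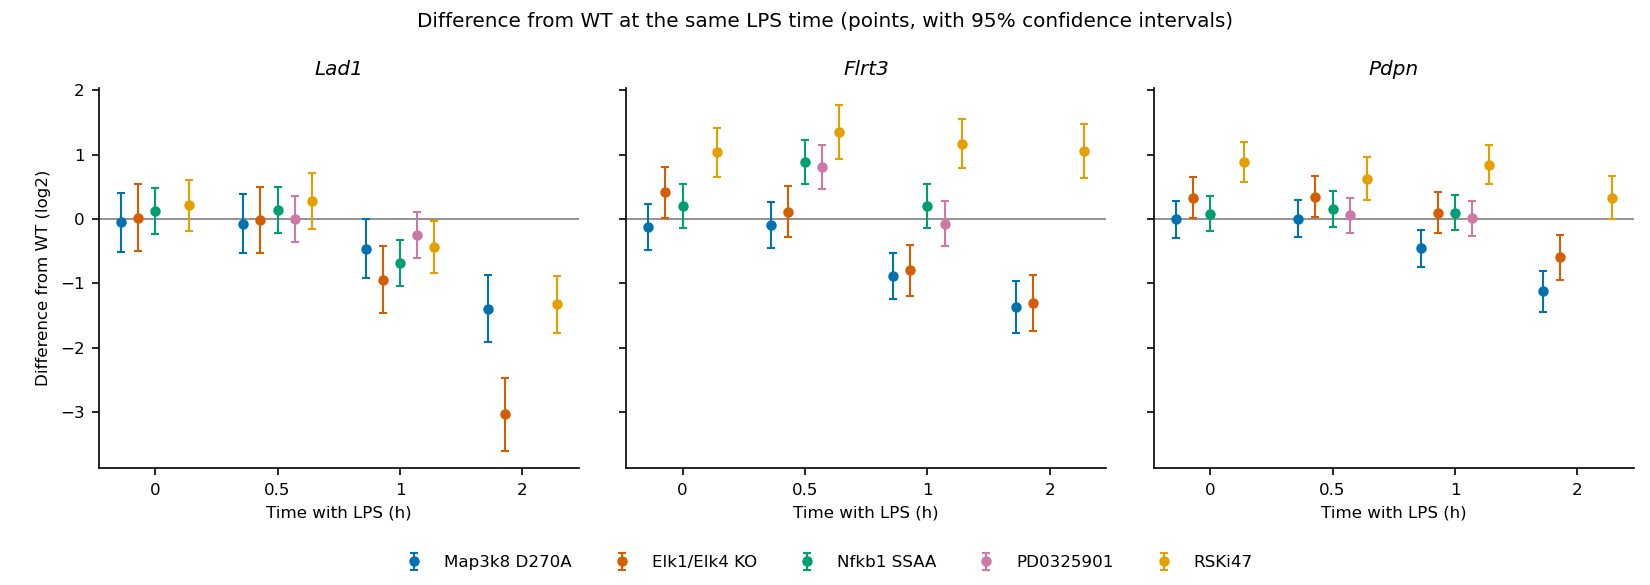
Difference from WT cells at the same time of LPS (log2, y axis, with 95% confidence intervals) for Lad1, Flrt3, and Pdpn in each genotype or inhibitor, by time of LPS (x axis, h). At 2 h the Elk1-/-Elk4-/- values are -3.04, -1.30, and -0.59, and the RSKi47 values are -1.33, 1.06, and 0.33.

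Side by side at 2 h, the mean of Lad1 was below WT in all 3 conditions measured, with differences of -1.39 in Map3k8[D270A], -3.04 in Elk1-/-Elk4-/-, and -1.33 in RSKi47-treated cells. Flrt3 was below WT in the 2 mutants (-1.37 and -1.30) and above it with RSKi47 (1.06). Pdpn was below WT in the mutants (-1.12 and -0.59) and differed by 0.33 with RSKi47. These comparisons share the 4 WT libraries at 2 h, and this pattern is what the genes were chosen for.

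The comparison with Nfkb1[SS/AA] cells asks what blocking the signal from IKK to p105 did. At 1 h of LPS, Lad1 was 2.72, 3.05, and 3.23 as the lowest, median, and highest of 6 libraries, against 3.11, 3.74, and 4.25 in WT. The groups overlapped, and the difference was -0.68 (SE 0.18), with 21.9% of all genes called lower. All 6 Nfkb1[SS/AA] values lie below the linear value of 10 used as a filter, which Lad1 passed through other groups. The difference between the 2 LPS responses at 1 h, a description because the WT response entered the choice, was -0.80 (SE 0.26) for Lad1, and 6.07% of all genes were called in either direction. Both values depended on the WT set. Against the WT libraries numbered 4 to 6 the level differed by -1.0 and the response by -1.11. Against those numbered 7 to 9 the level differed by -0.36 and the response by -0.50. With Nfkb1[SS/AA] replicates 1 to 3 alone the level differed by -0.49. Of 5 neutrophil markers tested 3 were higher in Nfkb1[SS/AA] cells at 1 h (median 0.51), with summed linear values of 155 to 326 against 84.3 to 213.7 in WT and Ly6g, Mpo, and Elane near their lowest values, and their part in these results was not tested.

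Flrt3 behaved differently in these cells. At 0.5 h it was 5.62, 5.99, and 6.77, wholly above WT (4.79 to 5.49). The difference, a description, was 0.89 (SE 0.17, 95% confidence interval 0.55 to 1.23). Of all genes tested, 16.7% were called higher and 8.13% had a group wholly above WT. The difference was 0.73 against the WT libraries numbered 4 to 6 and 1.04 against those numbered 7 to 9. It rested more on Nfkb1[SS/AA] replicates 4 to 6, with which alone it was 1.33, than on replicates 1 to 3, with which alone it was 0.45. The difference of the responses at 0.5 h, again a description, was 0.69 (SE 0.24), or 0.87 over the 3 library numbers that both genotypes have. It ranged from 0.43 to 0.95 under the alternative runs, and 0.309% of all genes were called. At 1 h Flrt3 was 7.32, 7.98, and 8.70, inside and above the WT range, and differed by 0.20 (SE 0.17).

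Pdpn was 9.58, 9.82, and 10.10 at 1 h in Nfkb1[SS/AA] cells, inside the WT range of 9.26 to 10.23. It differed by 0.10 (SE 0.14) and its response by 0.01. The WT set mattered here too. At 1 h Pdpn differed by -0.30 and Flrt3 by -0.31 against the WT libraries numbered 4 to 6. Against those numbered 7 to 9 Pdpn differed by 0.49 and Flrt3 by 0.70, so the sign turned for both. Without LPS the differences, a description, were 0.13 for Lad1, 0.20 for Flrt3, and 0.09 for Pdpn, and 32.0% of all genes were called in either direction. At 0.5 h, Lad1, near its lowest level, differed by 0.14 (SE 0.18) and Pdpn by 0.16 (SE 0.14).

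The LPS responses inside the mutant and inhibited cells show how much of each induction was left there. Since the genes were chosen as induced by LPS, these values are a description with no test, and nothing is read from the shares of all genes given beside them. In Map3k8[D270A] cells the unstimulated means were 2.42 for Lad1, 4.48 for Flrt3, and 8.63 for Pdpn. At 1 h Lad1 was 2.78, 3.30, and 3.49, Flrt3 was 6.25, 6.93, and 7.61, and Pdpn was 9.03, 9.29, and 9.53. Lad1 was thus higher by 0.82 (SE 0.23), Flrt3 by 2.41 (SE 0.18), and Pdpn by 0.64 (SE 0.14), and 21.8% of all genes were called higher. At 2 h, when 34.9% of all genes were called higher, Lad1 was higher by 3.09 (SE 0.23), Flrt3 by 1.03 (SE 0.18), and Pdpn by 1.16 (SE 0.14). At 0.5 h, when 3.91% were, Flrt3 was higher by 0.62 (SE 0.18), whereas Lad1 and Pdpn differed by -0.04 each. In these cells Flrt3 was thus again lower at 2 h than at 1 h, whereas Lad1 and Pdpn were higher.

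In Nfkb1[SS/AA] cells Flrt3 was higher than without LPS by 1.28 (SE 0.17) at 0.5 h, where 8.55% of all genes were called higher, and by 3.17 (SE 0.17) at 1 h, where 22.5% were. Pdpn differed by 0.01 at 0.5 h and by 1.1 (SE 0.14) at 1 h. Lad1 differed by 0.00 at 0.5 h and by 0.42 (SE 0.18) at 1 h, which was 0.58 in replicates 1 to 3 and 0.25 in replicates 4 to 6.

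With PD0325901, the cells that also got LPS were compared with cells that had the inhibitor alone for the same total time. At 0.5 h Flrt3 was higher than its mean of 5.02 at 40 min of inhibitor, by 0.99 (SE 0.21), with 9.38% of all genes called higher, and Lad1 differed by -0.06 and Pdpn by 0.11. At 1 h, when 21.9% of all genes were called higher, Lad1 was higher than at 70 min of inhibitor by 0.88 (SE 0.22), Flrt3 by 2.60 (SE 0.21), and Pdpn by 1.18 (SE 0.17). The 6 libraries with LPS may be repeats of 3 cultures, in which case these SEs are too small.

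PD0325901 alone did not move the 3 genes past the threshold. Between 10 min of inhibitor and 10 min of DMSO they differed by -0.03, 0.02, and -0.02, and 0% of all genes were called by limma, with 245 at an unadjusted p below 0.05. Between 40 and 10 min of inhibitor Lad1 differed by 0.10, Flrt3 by 0.26, and Pdpn by -0.05, and 3.58% of all genes were called in either direction. Between 70 and 10 min Lad1 differed by 0.15, Flrt3 by 0.34 (-0.14 to 0.82, adjusted p = 0.529, limma), and Pdpn by -0.02, and 2.62% of all genes were called higher and 3.47% lower. The Flrt3 value at 70 min was called when only the libraries of those groups were fitted (adjusted p = 0.0168, limma).

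Ordered by mean over the 25 groups, Lad1 was highest in WT cells at 2 h (6.89 ± 1.18, SD, n = 4), followed by RSKi47 (5.57 ± 0.28, SD, n = 4) and Map3k8[D270A] (5.51 ± 0.68, SD, n = 6) at 2 h, and these 3 overlapped in a chain. A gap with no overlap then separated them from Elk1-/-Elk4-/- at 2 h (3.86 ± 0.36, SD, n = 4), next to which stood WT at 1 h (3.69 ± 0.42, SD, n = 6). The other groups at 1 h lay between 2.75 and 3.45, and the remaining 15 groups between 2.38 and 2.73. Of 24 neighbouring pairs in this order, only that 1 did not overlap.

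Flrt3 was highest with RSKi47 at 1 h (8.95 ± 0.19, SD, n = 4). Below it, with no overlap to the next and small differences among themselves, were Nfkb1[SS/AA] at 1 h (7.97 ± 0.54, SD, n = 6), RSKi47 at 2 h (7.93 ± 0.20, SD, n = 4), WT at 1 h (7.78 ± 0.58, SD, n = 6), and PD0325901 at 1 h (7.71 ± 0.08, SD, n = 6). The next neighbour, which did not overlap with PD0325901 at 1 h but did with WT at 1 h, was Elk1-/-Elk4-/- at 1 h (6.98 ± 0.24, SD, n = 4), followed by Map3k8[D270A] at 1 h (6.89 ± 0.57, SD, n = 6), and WT at 2 h (6.88 ± 0.26, SD, n = 4). The lowest mean was 4.48 in unstimulated Map3k8[D270A] cells.

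Pdpn was highest with RSKi47 at 2 h (11.24 ± 0.44, SD, n = 4), then in WT at 2 h (10.91 ± 0.25, SD, n = 4), with RSKi47 at 1 h (10.57 ± 0.43, SD, n = 4), and in Elk1-/-Elk4-/- at 2 h (10.32 ± 0.32, SD, n = 4). Map3k8[D270A] cells at 2 h (9.79 ± 0.14, SD, n = 6) stood among Elk1-/-Elk4-/-, Nfkb1[SS/AA], PD0325901, and WT cells at 1 h, which lay between 9.72 and 9.82. None of the 24 neighbouring pairs was without overlap, and the lowest mean was 8.53 at 40 min of PD0325901.

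In WT, Map3k8[D270A], and Nfkb1[SS/AA] cells the libraries fell into sets by their numbers, and the sets differed by as much as many conditions did. With PD0325901 and LPS, replicates 1 to 3 and 4 to 6 overlapped for each gene, with Flrt3 at 7.75 and 7.66 on average at 1 h. At 1 h the WT libraries numbered 4 to 6 averaged 8.28 for Flrt3 and those numbered 7 to 9 averaged 7.27. The averages in Map3k8[D270A] cells were 7.37 for replicates 1 to 3 and 6.40 for 4 to 6, and in Nfkb1[SS/AA] cells they were 7.52 and 8.42. The lower numbers were thus higher in the first 2 genotypes and lower in the third. Pdpn at 1 h followed the same pattern, with 10.12 and 9.33 in WT. Lad1 at 1 h gave 4.01 and 3.38 in WT, and 3.20 and 2.83 in Nfkb1[SS/AA] cells, so there its lower numbers were higher. At 2 h Lad1 was 6.08 in replicates 1 to 3 and 4.93 in 4 to 6 of Map3k8[D270A] cells. What the sets stand for is not given in the labels.

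**Figure D4:**
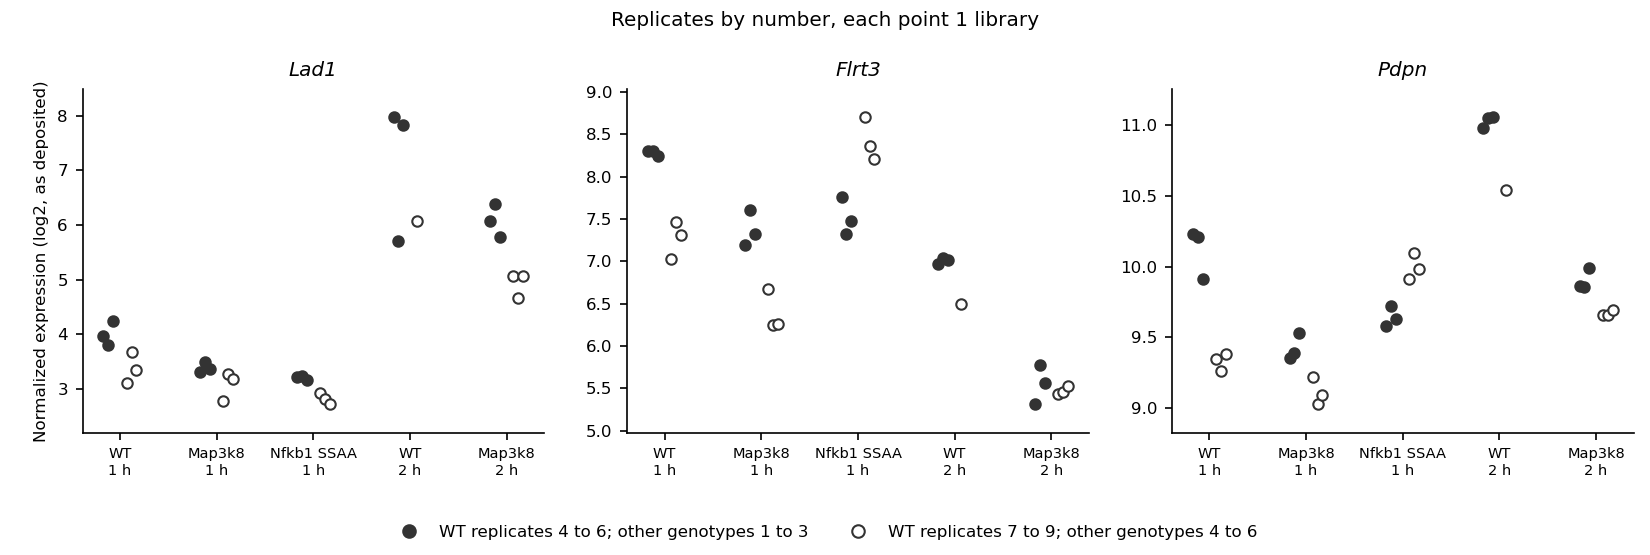
Value of Lad1, Flrt3, and Pdpn (log2, y axis) by library in WT, Map3k8[D270A], and Nfkb1[SS/AA] cells at 1 h and in WT and Map3k8[D270A] cells at 2 h of LPS (x axis), filled for the lower library numbers and open for the higher. At 1 h the filled points of Flrt3 lie above the open ones in WT (8.28 against 7.27 on average) and below them in Nfkb1[SS/AA] cells (7.52 against 8.42).

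Genes known to work with the 3 products, and genes of the pathway, were taken from lists chosen with earlier results known, and are given by their counts beside the median of all genes, which lay within 0.02 of 0 in each comparison. Of 10 podoplanin partners 9 were tested. In WT cells 5 were higher and none lower at 1 h (23.8% and 23.0% of all genes), and 6 were higher and 1 lower at 2 h (34.7% and 36.8%). Mmp14, a membrane protease, was higher by 3.40 at 2 h, Ezr, which encodes the actin linker ezrin, by 2.17, and Cd44, a hyaluronan receptor, by 1.69. In Map3k8[D270A] cells at 2 h, 1 was higher and 3 were lower, with Mmp14 at -0.76 and Ezr at -0.73 (14.6% of all genes higher and 13.1% lower). In Elk1-/-Elk4-/- cells at 2 h, 4 were higher and 3 lower, with Mmp14 at -1.64 (27.7% and 23.1%). With RSKi47, 6 of 9 were higher without LPS (26.8% of all genes higher, 26.3% lower), Mmp14 by 1.33 and Ezr by 0.72, and 7 at 1 h (26.5% and 26.3%), and none was lower. Without replicate 4 these counts were 6 and 5. The median difference of the list was 0.14 without LPS and 0.17 at 1 h.

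Of 15 genes of the FLRT family and its partners 6 were tested. Rnd1, a small GTPase that binds FLRT proteins, was higher in WT cells by 2.61 at 1 h and by 5.90 at 2 h, and Adgrl2, which encodes a latrophilin, by 2.03 at 2 h. In all, 3 were higher and none lower at 1 h (23.8% and 23.0% of all genes), and 3 were higher and 2 lower at 2 h (34.7% and 36.8%), with Flrt2 at -0.78. At 2 h Rnd1 was at -0.81 in Map3k8[D270A] cells and 1 gene was higher, Unc5b by 0.29 (13.1% of all genes lower and 14.6% higher). In Elk1-/-Elk4-/- cells 4 were higher, Flrt2 by 0.73, and Rnd1 was lower, at -0.54 (27.7% and 23.1%). With RSKi47 at 1 h (26.5% and 26.3%), 4 were higher, among them the FGF receptor Fgfr1 by 1.74 and Flrt2 by 0.76, and Rnd1 was lower, at -0.53, so that Flrt2 and Flrt3 were both above WT there. The counts at 1 h were the same without replicate 4.

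Of 11 genes that anchor cells to the basement membrane, the setting in which ladinin is best known, 7 were tested. At 2 h in WT cells 3 were higher and 2 lower (34.7% and 36.8% of all genes), with Dst at 0.85 and Plec at 0.79, which encode linkers of the cytoskeleton. In Elk1-/-Elk4-/- cells at 2 h the median difference of the 7 was 0.06, beside -3.04 for Lad1. In Map3k8[D270A] cells 1 was higher and 1 lower (14.6% and 13.1%), Lama3 by 0.92 and Dst at -0.39. With RSKi47 at 1 h 2 were higher, Dst by 0.84, and Lama3 was lower, at -0.73 (26.5% and 26.3%), with the same counts without replicate 4.

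Of 10 genes that report ERK output 6 were tested. In WT cells 3 were higher and 1 lower at 1 h of LPS (23.8% and 23.0% of all genes), and 2 were higher and 4 lower at 2 h (34.7% and 36.8%). With RSKi47, 1 was higher and 3 were lower without LPS (26.8% and 26.3%), and 1 was higher and 2 were lower at 1 h (26.5% and 26.3%), with the same counts without replicate 4. With PD0325901 alone, 4 were lower at 70 than at 10 min (3.47% of all genes), with Dusp6 at -2.08, Dusp4 at -1.11, Phlda1 at -1.04, and Spry2 at -0.92. With PD0325901 and 1 h of LPS 4 were lower than in WT and none higher, with Phlda1 at -1.11 and Dusp6 at -1.07 (16.4% of all genes higher and 19.3% lower), and in Nfkb1[SS/AA] cells 5 were lower and none higher, with Dusp6 at -1.12 and Phlda1 at -1.04 (20.5% and 21.9%). The median differences were -0.42 and -0.45. In Map3k8[D270A] cells at 2 h Phlda1 (-1.28) and Dusp4 (-0.84) were lower and none higher (13.1% and 14.6%). The same 2 were lower in Elk1-/-Elk4-/- cells (-1.31 and -0.58) and 1 was higher, Spry2 by 0.40 (23.1% and 27.7%).

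All 10 AP-1 genes were tested, and all 10 were higher in WT cells at 1 h (23.8% of all genes), with Maff at 4.25 and Junb at 2.87. With PD0325901 8 of them were lower at 1 h (19.3%), with Fosb at -1.83, Fosl1 at -1.54, and Fos at -1.44, and 1 was higher (16.4%), Atf3 by 0.38. In Nfkb1[SS/AA] cells 7 were lower and 1 higher at 1 h (21.9% and 20.5%), with Fosb at -1.73 and Fos at -1.62. At 2 h 6 were lower and 2 higher in Map3k8[D270A] cells (13.1% and 14.6%) and 6 lower and 1 higher in Elk1-/-Elk4-/- cells (23.1% and 27.7%), with Fosl2 at -1.49 and -1.44. With RSKi47 at 1 h 6 were lower, with Fosl1 at -1.38 and Batf at -0.84, and 2 higher (26.3% and 26.5%). Without replicate 4 these counts were 4 and 3.

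By the correlation of group means over the 25 groups, which share libraries and the course of LPS, the genes most like Lad1 were Zbtb46 and Grhl1 (Pearson's r 0.97 each) and Col27a1, E130012A19Rik, and Ubxn2a (0.96 each). Zbtb46 went from 3.03 without LPS to 5.13 at 2 h in WT cells, Grhl1 from 3.20 to 5.41, and Col27a1, which encodes a collagen chain, from 3.31 to 9.14. In Elk1-/-Elk4-/- cells at 2 h Col27a1 was at 7.28. The genes most like Flrt3 were Mir8097, Kdm6b, Coq10b, and Dnajb12 (0.92 each) and Dnajb5 (0.91). Kdm6b, a histone demethylase gene, was at 7.47, 12.11, and 9.83 in WT cells without LPS and at 1 and 2 h, highest at 1 h as Flrt3 was. The genes most like Pdpn were Gna13 (0.97), Il17ra (0.96), and Lox, Cav1, and Ezr (0.95 each), of which Ezr is also on the list of podoplanin partners. In WT cells Cav1 went from 6.64 without LPS to 8.50 and 10.82 at the later times.

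These likenesses depend on the measure. With Spearman's correlation 0 of the 5 genes most like Lad1, 2 of those of Flrt3, and 1 of those of Pdpn were found again, and over the 12 groups of WT, Map3k8[D270A], and Elk1-/-Elk4-/- cells 2, 0, and 1. Among themselves the 3 genes were less alike. Lad1 and Flrt3 correlated at 0.44, Lad1 and Pdpn at 0.81, and Flrt3 and Pdpn at 0.76 over the same 25 groups.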

How the data were processed

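RNA-seq libraries of BMDMs were used. Per the methods and labels, reads were single-end and strand-specific and the authors mapped them to mm10 with STAR, ran RSEM for estimated counts of RefSeq genes, and used DESeq2 for their tests. The submitters' processing notes give STAR 2.5.1b, RSEM 1.2.29, and DESeq2 1.10.1, and the methods name other versions of STAR and RSEM. The values they deposited are log2 values, normalized between libraries by a transformation that neither methods nor labels state, and differences were taken as log2. A single value above 25 was set to missing. Values were fitted with limma 3.58.1 in R 4.3.3 by group means without a trend, after keeping genes that reached 10 on the linear scale in 4 libraries (WT, Map3k8[D270A], and Elk1-/-Elk4-/-, 62 libraries) or 3 libraries (all). The fit was tested on simulated data. Figures were drawn with matplotlib 3.10.9. The members, lists, and motifs were chosen with earlier results of these data known. The genes named are the 3 members, the 5 most like each, and from each list up to 4 called genes with the largest difference. Same-numbered libraries deviated together in the LPS responses of Nfkb1[SS/AA] cells (correlations of 0.14 to 0.67 over 6 pairs) and of Map3k8[D270A] cells (0.12 to 0.76), so the numbers pair those libraries. The same held for the LPS responses of WT cells (0.16 to 0.79) and RSKi47-treated cells (0.11 to 0.70), and less so for Elk1-/-Elk4-/- cells (-0.04 to 0.59). The SEs given take no account of this pairing. Same-numbered libraries did not deviate together in the comparisons of other groups with WT or in those within PD0325901. The result of a list of glial markers is not reported here. p-values measure the spread between these libraries only.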

Additional observations from a re-analysis of the deposited data

Results flagged for a closer look

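In WT cells at 2 h, replicate 7 lay below the other 3 libraries for Flrt3, at 6.49, and for Pdpn, at 10.54, by a gap that took most of the range of the group. It is the only library numbered 7 to 9 at that time. In RSKi47-treated cells without LPS, replicate 4 lay above the other 3 libraries for Flrt3, at 6.06. These came from 60 combinations of gene and group, of which chance alone would give about 1 in 20. The LPS response of Lad1 at 1 h differed between Nfkb1[SS/AA] and WT cells, by -0.80, which is given as a description because the WT response entered the choice of the genes.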

How the results depend on the processing

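The Flrt3 difference of 0.89 at 0.5 h between Nfkb1[SS/AA] and WT cells, a description, kept its sign, from 0.45 to 1.33 under the alternative runs. The difference of the Lad1 response at 1 h between Nfkb1[SS/AA] and WT cells, a description, was -0.80 with no filter on low values, -0.77 after quantile normalization, -0.50 with WT replicates 7 to 9 only, -0.64 with Nfkb1[SS/AA] replicates 1 to 3, -0.97 with 4 to 6, and -1.28 with the numbers 4 to 6 of both, and leaving out single libraries gave -0.92 to -0.69. The Lad1 response at 1 h in Nfkb1[SS/AA] cells was 0.42 with a linear minimum of 20, after quantile normalization, with only the groups compared, and with the replicate block, but 0.58 in replicates 1 to 3 and 0.25 in replicates 4 to 6, and leaving out single libraries gave 0.37 to 0.48. With only the groups compared, Lad1 in Nfkb1[SS/AA] cells at 0.5 h (0.14, 0.0221) and Flrt3 at 70 min of PD0325901 (0.34, 0.0168) were called, and with the replicate block the latter (0.34, 0.0152). The difference of the Flrt3 response at 0.5 h, a description, was 0.87 with the block and ranged from 0.43 to 0.95 under the alternative runs. The block and the check of pairing changed no other tested call. In Nfkb1[SS/AA] cells the difference of Flrt3 at 0.5 h (0.89) lay under 1 and that of Lad1 at 1 h (-0.68) under ln 2 (0.693), both a description. Among the LPS responses, which are a description, those under 1 were 0.62 for Flrt3 at 0.5 h and 0.82 for Lad1 and 0.64 for Pdpn at 1 h in Map3k8[D270A] cells, and 0.99 for Flrt3 at 0.5 h and 0.88 for Lad1 at 1 h with PD0325901. Those under ln 2 were 0.62 and 0.64. Leaving out single libraries gave 0.55 to 0.72 for Flrt3 at 0.5 h in Map3k8[D270A] cells.

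The control set moved many values. With WT 4 to 6 (and Map3k8[D270A] 1 to 3), the WT response at 1 h was 1.53 for Lad1 and 3.61 for Flrt3, against 0.92 and 2.74 with WT 7 to 9. Flrt3 in WT at 2 h was then 1.96, and Map3k8[D270A] at 2 h gave -1.02 for Flrt3 and -0.87 for Pdpn. With WT 4 to 6 only, PD0325901 at 1 h gave -0.58 for Flrt3 and -0.38 for Pdpn, and RSKi47 at 1 h 0.66 for Flrt3. With WT 7 to 9 only, Nfkb1[SS/AA] cells gave 0.39 for Pdpn at 0.5 h and at 1 h -0.36 for Lad1, 0.70 for Flrt3, and 0.49 for Pdpn. Elk1-/-Elk4-/- cells at 2 h gave -0.92 for Flrt3 and -0.23 for Pdpn, PD0325901 at 1 h 0.44 and 0.40, and RSKi47 1.68 for Flrt3 at 1 h and 1.44 for Flrt3 and 0.70 for Pdpn at 2 h. With Nfkb1[SS/AA] 1 to 3 only, chosen after seeing the data, Flrt3 at 0.5 h was 0.45 and Lad1 at 1 h -0.49, and with 4 to 6 only Flrt3 at 1 h was 0.64. The replicate block against WT could use only the numbers 4 to 6 of both groups, and the values it moved are the plain differences of those libraries, whose numbers do not pair them. Map3k8[D270A] cells at 2 h then gave -2.24 for Lad1 and -1.36 for Pdpn, and PD0325901 at 1 h -0.61 for Lad1, -0.62 for Flrt3, and -0.33 for Pdpn. The cause of these shifts was not tested. Adjusted p-values are from limma. A pseudocount was not tried because the values are already on a log scale. Values of Lad1 before 1 h lie near its lowest level, which limits what can be seen there.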
